A study of Homo sapiens with 8 samples.

Results

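The 3 NR4A nuclear receptor genes (NR4A1, NR4A2, NR4A3) and 3 further genes that neurons switch on with activity (NPAS4, ARC and BDNF) were followed by name through a single-cell RNA sequencing study of neural cultures. All 6 were found among the 60286 genes of the deposited matrix. They were chosen by name and not by a cut on their values, though with earlier results of these data known. The source was H1, a long-established line of human embryonic stem cells, grown either flat (2-D) or as organoids (3-D) in several protocols, and part of the cultures met dopamine, cocaine or morphine. The matrix holds 43693 cells from 8 sublibraries of 1 barcoded pool. Every label names all treatments together, so groups were read from the 46 culture tags that stand in the cell names.

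Each tag gives a format, an arrangement, in most cases a treatment, and a number. The arrangements read 2DCocu (12 tags), 3DFusi (10 tags), 2DMono (6 tags), 3DMono (6 tags) and 5 untreated protocols, 2DProto2Fjo, 2DProto3Wu and 2DProto4Nic with 2 tags each and 3DProto1For and 3DProto2Xia with 3 tags each. The treatments read AcCoc and AcMor beside Vehic in 2DCocu and 3DFusi, and AcDop and AcMor beside Vehic in 2DMono and 3DMono. These abbreviations fit the drugs named in the labels, but the labels do not spell them out, give no dose or duration, and say untreated where the tags say Vehic. All tags share the H1 line. Replication below is over tags. Nothing states that tags with different numbers were separate cultures, so the p-values measure only the spread between tags. For organoids the labels give cutting and papain, and for 2-D cultures no way of dissociation is stated, so culture format and handling before fixation cannot be told apart.

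NR4A1, NR4A2 and NR4A3 encode orphan nuclear receptors that need no ligand and are controlled mainly by how fast their genes are transcribed. They are immediate early genes, induced within minutes by calcium, cAMP, growth factors or stress in many cell types, fibroblasts as well as neurons, and NR4A2 is also a lasting identity factor of midbrain dopamine neurons. NPAS4 is a transcription factor that is induced almost only in neurons and almost only by calcium entry after depolarization. ARC and BDNF are among the effectors of such programs: ARC acts at the synapse, where it promotes removal of AMPA receptors, and BDNF is a secreted neurotrophin that signals through TrkB. In GENCODE 29 on GRCh38, NR4A1 lies on chromosome 12 from 52022832 to 52059507 (plus strand) and NR4A2 on chromosome 2 from 156324432 to 156342348 (minus strand). NR4A3 lies on chromosome 9 from 99821855 to 99866891 (plus strand). NPAS4 lies on chromosome 11 from 66421004 to 66426707 (plus strand) and BDNF on the same chromosome from 27654893 to 27722058 (minus strand).

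Activity and cAMP reach several of these genes through CREB, a factor that binds the cAMP response element, so the sequence upstream of each start site was searched for that element. The windows were the 250 bases before the start sites of RefSeq, build GRCh38.p14, matched by symbol for 4 of the 6 genes. The short motif searched was TGACG, read on both strands (CGTCA on the other), and the full palindrome was TGACGTCA, which contains it. Of 35116 RefSeq promoters, 21.22% held at least 1 short motif, 4.76% at least 2 and 1.01% at least 3. The windows below are shown because they hold the short motif, in capitals; each runs 5′ to 3′ toward the start site and is cut before the first exon.
NR4A3, chr9:99821635-99821854, plus strand, start site 99821885: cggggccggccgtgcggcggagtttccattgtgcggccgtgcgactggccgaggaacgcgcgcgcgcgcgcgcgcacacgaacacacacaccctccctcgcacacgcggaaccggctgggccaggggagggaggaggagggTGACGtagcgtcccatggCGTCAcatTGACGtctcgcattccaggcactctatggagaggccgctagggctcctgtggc
NPAS4, chr11:66420754-66421003, plus strand, start site 66421004: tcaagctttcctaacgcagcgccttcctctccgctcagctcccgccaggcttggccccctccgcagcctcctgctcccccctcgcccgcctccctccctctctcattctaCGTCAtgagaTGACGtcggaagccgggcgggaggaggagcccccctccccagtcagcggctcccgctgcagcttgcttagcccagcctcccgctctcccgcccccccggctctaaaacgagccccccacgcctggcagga
BDNF, chr11:27701634-27701871, minus strand, start site 27701621: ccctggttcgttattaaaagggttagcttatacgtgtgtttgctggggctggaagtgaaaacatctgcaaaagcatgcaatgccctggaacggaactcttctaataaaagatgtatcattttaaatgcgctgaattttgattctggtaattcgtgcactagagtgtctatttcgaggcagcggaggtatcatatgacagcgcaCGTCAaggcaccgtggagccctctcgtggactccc

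The NR4A3 window held 3 short motifs, starting at positions -109, -91 and -83 from the start site, and the full 250 bases held 4, a count reached by 0.24% of promoters. NPAS4 held 2, at -140 and -130, and BDNF held 1 at -47 in the window of 1 of its 5 start sites. Both NR4A1 windows (start sites 52022832 and 52037715) held none, and any other start site of this gene was not searched. The full palindrome (1.65% of promoters) and the NR4A response element AAAGGTCA (1.05%) were in none of these windows. A match of letters is a description and not evidence of a bound site.

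Depth set what could be seen of such rapidly degraded transcripts. The 46 tags held 317 to 1959 cells and 3624668 to 58777178 expected counts, with a median of 12776 counts per cell. Of the 43693 cells, 4894 share a barcode combination with a cell of another sublibrary and 0 with a cell of their own. NR4A1 had a count in 8962 cells (20.51%), NR4A2 in 4270 (9.77%), NR4A3 in 3019 (6.91%), NPAS4 in 3185 (7.29%), ARC in 1303 (2.98%) and BDNF in 3019 (6.91%), where a count is an expected count of at least 0.5. NPAS4 was the most uneven of the well counted genes: 1% of cells held 44.9% of its counts, against 29.3% for NR4A1. ARC, with 1701 counts in all, was the thinnest measurement.

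The counts are expected counts that can split a read between genes, and that limits 2 of the 6. Of the BDNF entries above 0, 7.7% were exactly whole numbers and 69.6% were below 1, against 97.2% exactly whole for NPAS4 and 97.9% for NR4A2. BDNF-AS, an antisense gene, overlaps BDNF on the opposite strand over 43282 bases, exons included. In 3014 of the 3624 cells (83.2%) where the BDNF entry was more than 0.02 from a whole number, the BDNF-AS entry was not whole either. The use of strand in counting is not stated, so reads of BDNF and BDNF-AS cannot be told apart and BDNF is given as uncertain throughout. Of the NR4A3 entries, 16.8% were exactly whole and 53.0% below 1, and the gene sharing these reads was not identified.

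Cells were clustered without the 6 genes and named from marker lists, so that classes were not drawn by the genes described. The names were set against their markers: GAD1 stood at 269 CPM in GABAergic neuron-like cells (counts as a share of all counts, in the usual CPM unit) against 6.41 in excitatory neuron-like cells, the excitatory marker TBR1 at 135 CPM in excitatory neuron-like cells against 1.75 in GABAergic ones, SLC6A5 at 69.7 CPM in glycinergic neuron-like cells, and COL1A1 at 2988 CPM in mesenchymal-like cells. The glycinergic name covers clusters 4 and 14. SLC6A5 led cluster 14, while cluster 4 was named from 4 of 5 listed markers and led by THSD7B, RIT2 and CA10. The SLC6A5 level of each cluster is not reported here. The naming rule was set after the clusters were seen, and 23.21% of cells stayed unnamed. Levels by class are descriptions, the mean over tags with at least 20 cells of the class, and are not tested. They are not compared between genes, because counts were not divided by transcript length.

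NPAS4 had its highest means in neuron classes, though not in every neuron cluster. It averaged 48.1 ± 47.8 CPM (SD, 31 tags) in GABAergic neuron-like cells, 29.9 ± 23.9 (34 tags) in glycinergic neuron-like cells and 17.1 ± 18.8 (40 tags) in excitatory neuron-like cells. In mesenchymal-like cells it averaged 0.852 ± 0.897 CPM (27 tags) and in progenitor-like cells 1.26 ± 1.28 (32 tags). The 3 neuron classes overlapped widely from tag to tag, and over pooled counts glycinergic neuron-like cells stood at 33.2 CPM and GABAergic neuron-like cells at 31.5. Over pooled counts, GABAergic clusters 19 and 3 stood at 110 and 45.6 CPM, while GABAergic clusters 9 and 22 (1587 and 759 cells) stood at 2.78 and 3.68 CPM and the excitatory cluster 0 (2944 cells) at 1.95, within the range of non-neuronal clusters. Glycinergic cluster 4 (2341 cells) stood at 42.2 CPM, and glycinergic cluster 14 (1213 cells), whose leading gene was SLC6A5, at 8.34. The 5681 GABAergic neuron-like cells held 29.77% of all NPAS4 counts. Unnamed clusters held NPAS4 counts too, most in cluster 13 (99.0% doublets), with 11.88% of them at 19.1 CPM. The share of cells with an NPAS4 count was 19.70% in glycinergic neuron-like cells (median depth 11877 counts) and 12.44% in GABAergic neuron-like cells (10023), against 1.78% in mesenchymal-like cells (15338) and 0.62% of 321 astrocyte-like cells (12326), classes not known to use the gene. After thinning each cell to 5000 counts the shares were 10.31%, 8.54%, 0.45% and 0.65%.

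Over all tags, NR4A1 and NR4A2 had their highest mean outside neurons. NR4A1 averaged 137 ± 117 CPM (27 tags) in mesenchymal-like cells, against 49.5 ± 42.3 (31 tags) in GABAergic neuron-like, 23.5 ± 15.4 (34 tags) in glycinergic neuron-like and 16.2 ± 11.2 (40 tags) in excitatory neuron-like cells. In 2DMono the order turned: mesenchymal-like cells were at 16.7 CPM in the 1 tag measured, and GABAergic neuron-like cells at 74.4 to 158 CPM. In 2DCocu mesenchymal-like cells were at 7.12 to 25.7 CPM, and 11 of its tags held fewer than 20 GABAergic neuron-like cells. Mostly flat neuron clusters, pooled, stood at 6.97 CPM (cluster 0), 10.7 (9), 11.1 (33), 14.5 (14), 16.6 (15), 19.0 (20) and 127 (19). The 3419 mesenchymal-like cells, 7.83% of all, held 33.2% of NR4A1 counts. A count was seen in 50.34% of them (32.7% after thinning) and in 12.45% of excitatory neuron-like cells (4.75% after thinning). NR4A2 averaged 27.7 ± 23.0 CPM in mesenchymal-like cells and 12.02 ± 14.7 in excitatory neuron-like cells, with 8.33 ± 9.20 in GABAergic neuron-like cells, and in 2DMono 6.28 CPM (1 tag) in mesenchymal-like cells against 22.7 ± 8.86 in GABAergic neuron-like cells. Over pooled counts NR4A2 stood at 41.6 and 42.9 CPM in mesenchymal clusters 7 and 35, but at 6.39 and 8.12 in clusters 24 and 29. Excitatory cluster 2 stood at 19.4 CPM. Unnamed cluster 16, whose leading gene was TTR, stood at 31.4 CPM and held 11.5% of NR4A2 counts. The dopaminergic role of NR4A2 could not be followed here, because TH, the rate-limiting enzyme of dopamine synthesis, reached only 7.68 CPM in the class where it was highest (pan-neuron-like cells).

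NR4A3 had its highest mean in excitatory neuron-like cells, 14.1 ± 10.2 CPM (40 tags), with 12.8 ± 15.3 in GABAergic neuron-like and 10.8 ± 9.28 in mesenchymal-like cells, values that do not differ beyond their spread. ARC was low everywhere, at 4.82 ± 6.35 CPM in GABAergic neuron-like cells, 3.26 ± 2.67 in glycinergic neuron-like cells and 0.938 ± 1.66 in mesenchymal-like cells. BDNF ran from 1.51 ± 1.40 CPM in intermediate progenitor-like cells to 8.90 ± 4.43 in glycinergic neuron-like cells, and its antisense partner limits that reading.

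**Figure D1:**
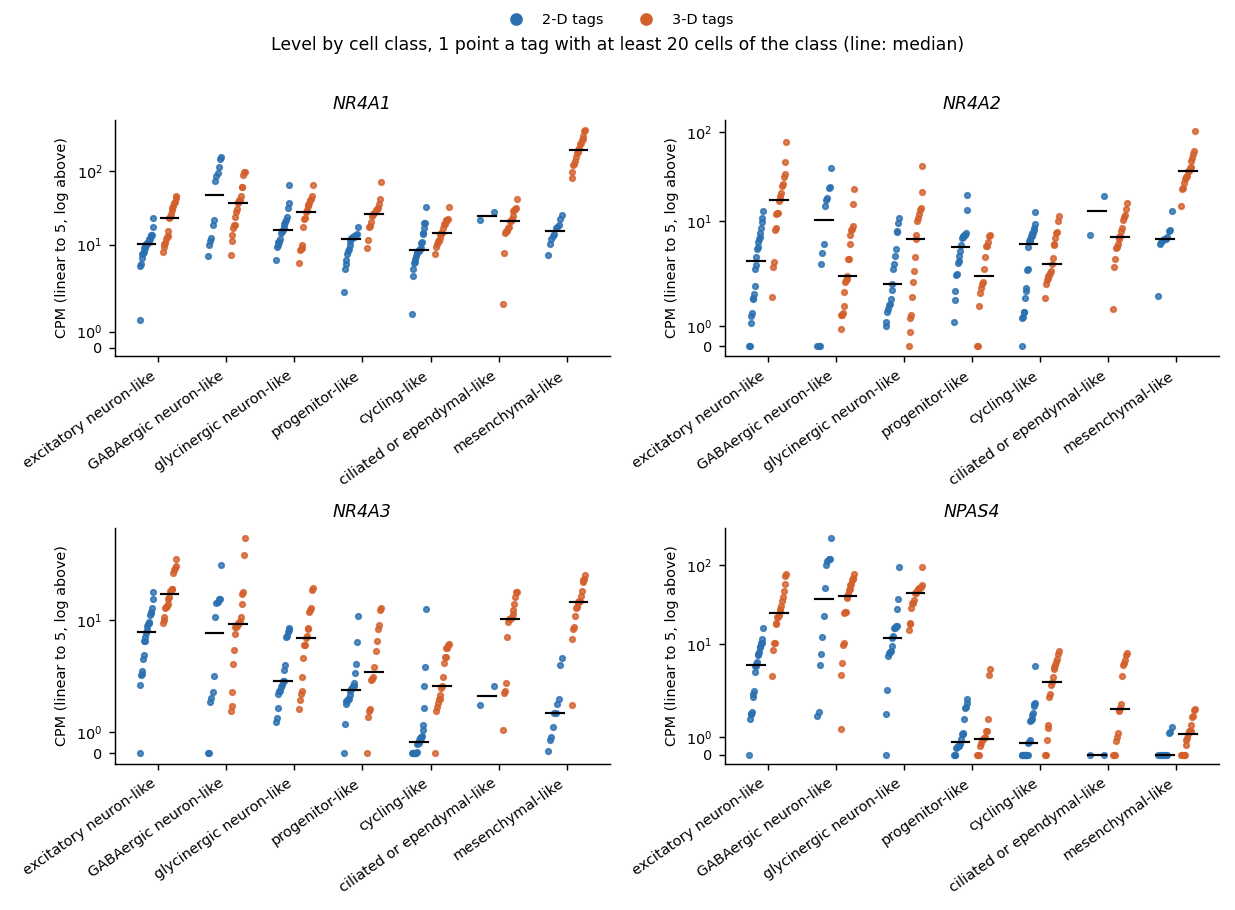
Level of NR4A1, NR4A2, NR4A3 and NPAS4 (y axis, CPM, linear to 5 and logarithmic above) in 7 cell classes (x axis), 1 point a tag with at least 20 cells of the class, 2-D tags in blue and 3-D tags in orange, with a line at the median. NPAS4 stands near 0 in mesenchymal-like cells of both formats, while NR4A1 in those cells lies at 82.4 CPM or more in every 3-D tag shown and at 25.7 CPM or less in every 2-D tag.

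Across whole tags, all cells summed, levels were spread widely between arrangements. NR4A1 ranged from 8.68 to 133 CPM over the 46 tags. By arrangement it averaged 74.0 ± 37.1 CPM in 3DProto1For, 70.0 ± 35.8 in 3DFusi, 29.3 ± 10.8 in 2DProto2Fjo, 27.5 ± 9.25 in 3DMono, 26.4 ± 9.33 in 3DProto2Xia, 19.7 ± 3.38 in 2DMono, 13.6 ± 2.80 in 2DProto4Nic, 13.01 ± 2.98 in 2DCocu and 10.01 ± 1.56 in 2DProto3Wu. Neighbours in this order do not differ beyond their spread, since the ranges of every neighbouring pair overlap.

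NR4A3 kept nearly the same order, with 15.4 ± 1.43 CPM in 3DProto1For, 10.7 ± 4.52 in 3DFusi and 9.65 ± 0.966 in 3DProto2Xia at the top, 8.20 ± 0.153 in 2DProto2Fjo, 6.77 ± 2.09 in 3DMono and 5.52 ± 1.75 in 2DMono between, and 4.02 ± 0.849 in 2DCocu, 3.61 ± 0.951 in 2DProto4Nic and 2.55 ± 0.143 in 2DProto3Wu at the bottom. NR4A2 was highest in 3DFusi (16.0 ± 8.07 CPM) and 3DProto1For (15.9 ± 6.27) and lowest in 2DProto3Wu (3.52 ± 0.385). The rest lay between, 12.7 ± 7.13 in 3DMono, 11.5 ± 2.26 in 2DProto2Fjo, 8.78 ± 3.79 in 3DProto2Xia, 7.71 ± 2.46 in 2DMono, 7.39 ± 0.342 in 2DProto4Nic and 5.46 ± 1.66 in 2DCocu.

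NPAS4 gave another order, with 2DMono among the high arrangements: 19.3 ± 12.4 CPM in 3DProto2Xia, 16.6 ± 6.33 in 3DFusi, 15.1 ± 6.12 in 3DProto1For, 14.8 ± 5.47 in 2DMono and 9.39 ± 6.84 in 3DMono. The other 4 flat arrangements lay between 1.78 ± 0.031 (2DProto3Wu) and 4.02 ± 2.15 (2DCocu). ARC averaged 0.811 ± 0.047 CPM in 2DProto4Nic to 5.36 ± 1.95 in 3DProto1For, and its 3 tags in 3DProto2Xia ran from 0.343 to 9.15. BDNF was highest in 2DProto4Nic, at 9.59 and 10.6 CPM in its 2 tags, and averaged 4.48 ± 0.596 (3DMono) to 6.73 ± 1.74 (2DMono) elsewhere. BDNF-AS was highest in 2DProto4Nic as well, at 74.1 ± 3.22 CPM, against 34.5 to 57.0 on average in the other arrangements.

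**Figure D2:**
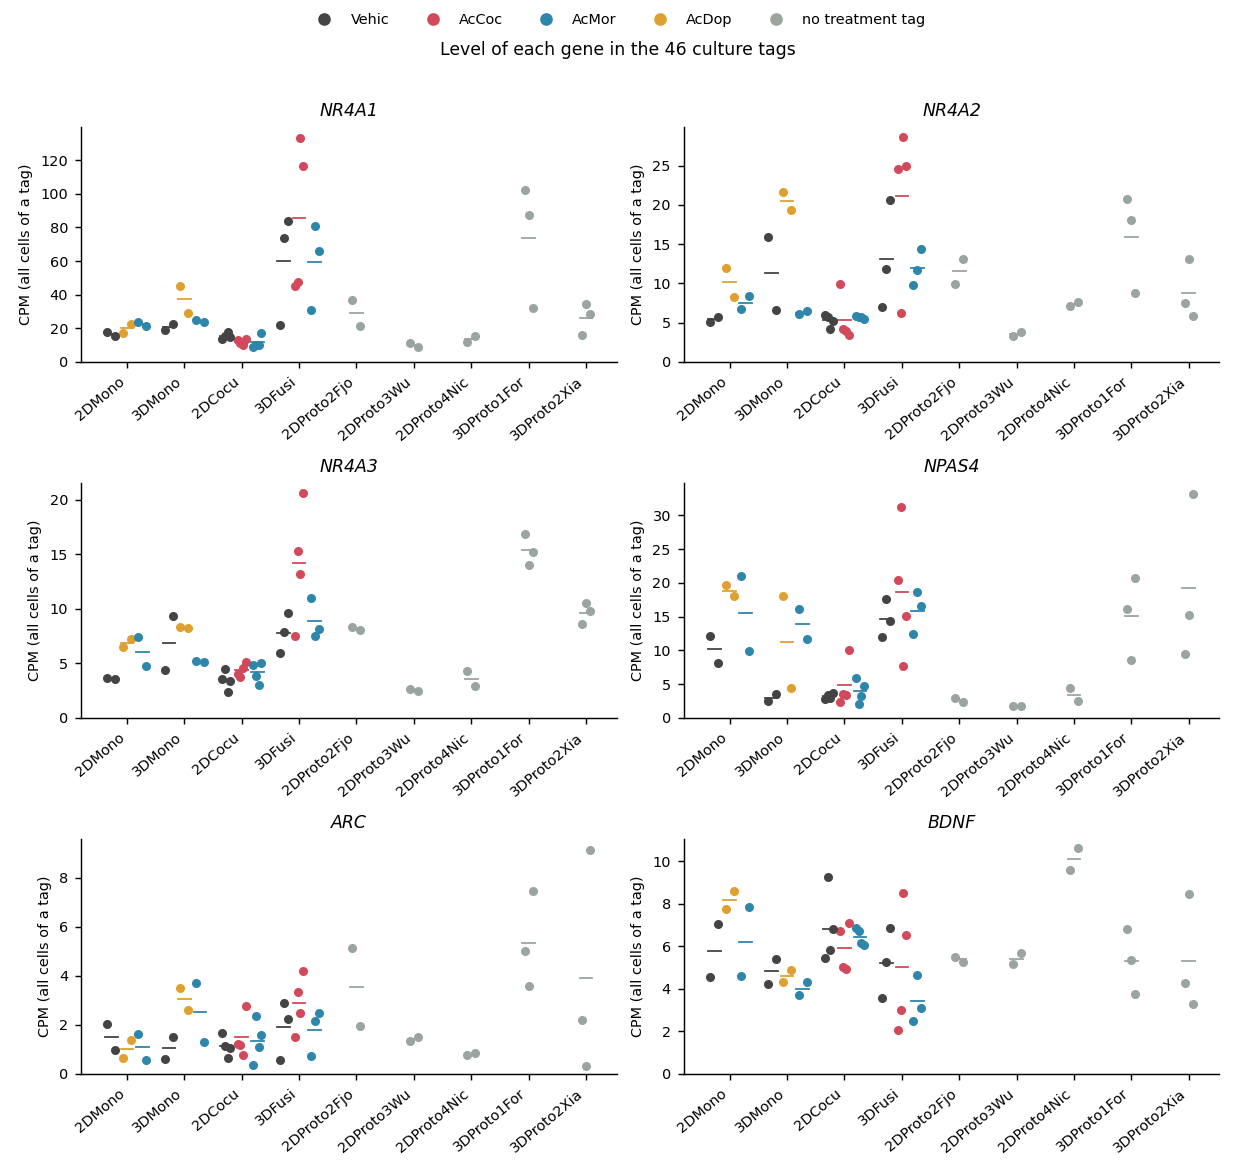
Level of each of the 6 genes (y axis, CPM over all cells of a tag, from 0) in the 46 culture tags by arrangement (x axis), coloured by treatment. NR4A1 spreads from 21.8 to 133 CPM within 3DFusi and stays between 8.68 and 17.8 CPM in 2DCocu, and NPAS4 is low in 4 of the 5 flat arrangements but not in 2DMono.

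The comparison of organoids with flat cultures that carry the same treatment names, 3DFusi against 2DCocu, asked how format goes with these genes. All 3 NR4A genes and NPAS4 were higher in 3DFusi, BDNF was lower, and ARC did not pass the test. NR4A1 ran from 21.8 to 133 CPM in the 10 3DFusi tags (median 70.0) and from 8.68 to 17.8 in the 12 2DCocu tags (median 13.1), so the groups did not overlap. The fitted difference was 2.28 on the log2 scale (SE 0.23, 4.84-fold, adjusted p = 4.27e-08). This and all further adjusted p-values, unless DESeq2 is named, come from the quasi-likelihood test of edgeR, run on sums per tag with Benjamini-Hochberg adjustment over all genes tested. Treatment was a covariate where arrangements were compared. In this comparison 49.4% of the 20930 genes tested passed the threshold of 0.05, and 5 of the 6 genes did, a count to be read against that background.

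NR4A3 was 6.00 to 20.6 CPM in 3DFusi (median 8.88) and 2.40 to 5.14 in 2DCocu (median 3.94), again without overlap, a difference of 1.23 (SE 0.15, adjusted p = 7.16e-07). NR4A2 was 6.25 to 28.6 CPM (median 13.1) against 3.43 to 9.96 (median 5.57), 1.40 higher (SE 0.23, adjusted p = 2.57e-05). Its groups overlapped through 3 low 3DFusi tags and 1 high 2DCocu tag. NPAS4 was 7.66 to 31.3 CPM (median 15.9) against 2.12 to 9.999 (median 3.37), 1.98 higher (SE 0.24, adjusted p = 6.15e-07), with overlap between the lowest 3DFusi tag and the highest 2DCocu tag. GABAergic neuron-like cells, the class with the highest mean of NPAS4, made up 15.8% of 3DFusi and 0.92% of 2DCocu cells, and their part in this difference was not tested. ARC was 0.554 to 4.199 CPM (median 2.37) against 0.347 to 2.79 (median 1.15), a difference of 0.55 (SE 0.30, adjusted p = 0.126), and passed only without the Vehic tag number 1 of 3DFusi (adjusted p = 0.0405).

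BDNF ran from 2.09 to 8.51 CPM in 3DFusi (median 4.12) and from 4.92 to 9.26 in 2DCocu (median 6.44), with wide overlap, and the fitted difference was -0.59 (SE 0.18, adjusted p = 0.0107). The difference of BDNF-AS was 0.00 (SE 0.11, adjusted p = 0.989).

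Cells of a mesenchymal-like kind moved with the NR4A result. They made up 15.47% of 3DFusi cells and 3.96% of 2DCocu cells, and in bulk sums more cells of a type and more RNA per cell cannot be told apart, so the class was taken out and then fitted on its own. Without mesenchymal-like cells the differences were 1.53 for NR4A1, 0.86 for NR4A2 and 1.01 for NR4A3, all called, while NPAS4 was 2.08 (adjusted p = 5.83e-08) and BDNF -0.57. Unnamed cluster 17, with 7 of 8 mesenchymal markers and 79.4% doublets, stayed in that fit. It held 13.24% of NR4A1 counts, with 445 cells in 3DFusi and 50 in 2DCocu, and its part was not tested. Within mesenchymal-like cells alone (8 3DFusi tags and 7 2DCocu tags with at least 20 such cells) NR4A1 ran from 97.7 to 373 CPM in 3DFusi (median 219.5) and from 7.12 to 25.7 in 2DCocu (median 13.8). That difference was 3.52 (SE 0.29, adjusted p = 2.23e-07), with 2.26 (SE 0.28) for NR4A2 and 3.47 (SE 0.44) for NR4A3, all called. NR4A3 was near the floor in 2DCocu: cluster 29, with 96.8% of the class there, held 10.2 NR4A3 counts in 468 cells. It passed the filter through 3DFusi, so the direction of its call was set by the filter. Over all cells of this pair 49.4% of genes were called. The shares in the fits without and within mesenchymal-like cells are not reported here.

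Where tags held at least 20 cells of the class, it was lower for NR4A1 in the 3 flat arrangements so measured than in the 4 organoid arrangements. It averaged 15.6 ± 6.75 CPM in 2DCocu (7 tags), 15.1 ± 2.93 in 2DProto4Nic (2 tags) and 16.7 in the 1 tag of 2DMono. In organoids it averaged 229 ± 88.0 in 3DFusi (8 tags), 184 ± 97.3 in 3DMono (6 tags) and 243 ± 50.3 in 3DProto1For (2 tags), with 125 in the 1 tag of 3DProto2Xia. Different clusters hold the class in the formats, cluster 29 in 2DCocu (96.8%), cluster 24 in 2DProto4Nic (every cell) and cluster 7 in 3DFusi (83.3%) and 3DMono (90.7%).

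Genes that work around the 6 were read from lists, by counts and medians beside those of all 20930 genes tested, of which 5580 were higher in 3DFusi and 4760 lower (median 0.05). Of 17 rapid immediate early genes tested, 12 rose and 1 fell in 3DFusi, with a median of 1.41: FOSB was higher by 3.51 (SE 0.36), FOS by 3.00 (SE 0.16), KLF4 by 2.29 (SE 0.43) and JUN by 2.06 (SE 0.19), all transcription factors of the first wave. Of 27 activity-regulated effector genes, 13 rose and 6 fell (median 0.28). RGS2 and RGS4, which damp G-protein signalling, rose by 1.96 (SE 0.19) and 1.87 (SE 0.45), the stress gene GADD45B by 1.80 (SE 0.31) and the matrix protein gene CCN1 by 1.34 (SE 0.22). The 6 that fell were BAIAP2 (-0.80), NRN1 (-0.78), NPTX2 (-0.73), NPTX1 (-0.66), CREM (-0.31) and HOMER1 (-0.24).

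In the pathway that leads from calcium and cAMP to CREB, SRF and MEF2, 5 of 30 genes were higher and 12 lower (median -0.12), and the share called, 17 of 30, was near that of all genes. Adenylyl cyclase ADCY8 (-1.89, SE 0.19), the kinase CAMKK1 (-1.39, SE 0.13) and the NMDA receptor subunit GRIN2A (-1.19, SE 0.19) fell, and CAMK2A rose by 1.39 (SE 0.18). Partners of NR4A and NPAS4 gave 1 higher and 5 lower of 8. RXRG, a heterodimer partner of NR4A1 and NR4A2, was lower (-1.38, SE 0.28), as was RXRA (-0.35, SE 0.13), and HDAC1 was higher (0.64, SE 0.10). Of 8 NR4A2 targets of dopamine neurons 4 could be tested, and all 4 rose: RET by 1.89 (SE 0.42), DDC by 1.47 (SE 0.27), ALDH1A1 by 1.02 (SE 0.25) and SLC18A2 by 0.71 (SE 0.20).

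Around BDNF, 2 of 11 genes rose and 5 fell (median -0.47), among them the neurotrophin NTF3 (-1.38, SE 0.22) and the sorting receptor SORT1 (-0.76, SE 0.11), while the receptor gene NGFR rose (2.39, SE 0.35). Of 8 synaptic partners of ARC, GRIA1 rose by 0.52 (SE 0.17) and SH3GL3 fell by 0.73 (SE 0.13). Stress genes known to respond to tissue dissociation and heat moved with the immediate early genes: 10 of 15 rose and 0 fell (median 0.83), led by SOCS3 (2.13, SE 0.24), ZFP36 (2.11, SE 0.27) and DNAJA1 (1.49, SE 0.17). The part of handling in the NR4A and NPAS4 differences was not tested.

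In excitatory neuron-like cells NPAS4 was 17.9 to 76.2 CPM in the 10 3DFusi tags (median 37.3) and 0 to 15.8 in the 12 2DCocu tags (median 6.55). The groups did not overlap, and the difference was 2.70 (SE 0.35, 6.50-fold, adjusted p = 1.89e-06), against 41.2% of 10565 genes called. A count was seen in 21.63% of these cells in 3DFusi and 3.58% in 2DCocu (10.2% and 1.89% after thinning). NR4A1 was higher by 1.73 (SE 0.18, adjusted p = 1.94e-08) and NR4A3 by 1.18 (SE 0.23, adjusted p = 0.000167), and these were the 3 genes that passed the filter on low counts in this class.

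NR4A2, ARC and BDNF were filtered there. All 6 rapid immediate early genes that could be tested in the class rose (median 1.74), FOS by 3.52 (SE 0.25), and so did 5 of 7 dissociation and heat genes (median 1.19). Cluster 0 holds most of these cells in 2DCocu (80.3%) and cluster 2 in 3DFusi (91.5%). GABAergic neuron-like cells could not be compared between this pair, since 11 of the 2DCocu tags held fewer than 20 of them.

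The monocultures gave another picture. In 3DMono against 2DMono, 38.8% of 20190 genes were called, and 2 of the 6 genes, both lower in organoids. NPAS4 was 2.45 to 18.1 CPM in the 6 3DMono tags (median 8.06) and 8.16 to 21.1 in the 6 2DMono tags (median 15.1), a difference of -1.06 (SE 0.36, adjusted p = 0.0306) with wide overlap. That call was lost on leaving out any of 7 of the 12 tags, the 2DMono tags AcDop 1, AcDop 2, AcMor 1 and Vehic 1 and the 3DMono tags AcDop 2, Vehic 1 and Vehic 2, with adjusted p up to 0.0863. BDNF was 3.70 to 5.42 CPM against 4.55 to 8.60, a difference of -0.73 (SE 0.18, adjusted p = 0.00616).

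NR4A1 was 18.7 to 45.0 CPM (median 24.5) in 3DMono and 15.4 to 23.8 (median 19.5) in 2DMono, a difference of 0.24 (SE 0.15, adjusted p = 0.212). NR4A2 (0.44, SE 0.25), NR4A3 (0.09, SE 0.22) and ARC (0.38, SE 0.45) did not pass either. Other early genes did: 8 of 16 rapid immediate early genes rose and 2 fell (median 1.02), with FOS up by 1.96 (SE 0.14) and FOSB up by 1.90 (SE 0.28), and FOSL2 (-2.43, SE 0.17) and FOSL1 (-2.10, SE 0.18) down. Effector genes fell, 13 of 26 against 2 that rose (median -0.67), with RGS4 (-2.92, SE 0.24), the phosphatase gene DUSP6 (-2.26, SE 0.22), INHBA (-2.24, SE 0.31) and the prohormone convertase PCSK1 (-1.98, SE 0.27) moving most.

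Dissociation and heat genes stayed mixed in the monocultures, with 1 of 15 higher (DNAJA1, 1.00, SE 0.13) and 1 lower (IER3, -3.66, SE 0.40). Around BDNF, 7 of 10 genes fell and 0 rose (median -0.71), NTF3 by -2.91 (SE 0.21) and the BDNF receptor NTRK2 by -1.05 (SE 0.19). The calcium and cAMP pathway gave 4 higher and 8 lower of 30, partners of NR4A and NPAS4 gave 1 higher and 3 lower of 8, ARC partners gave 2 higher and 0 lower of 8, and the 4 NR4A2 targets gave 1 of each.

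**Figure D3:**
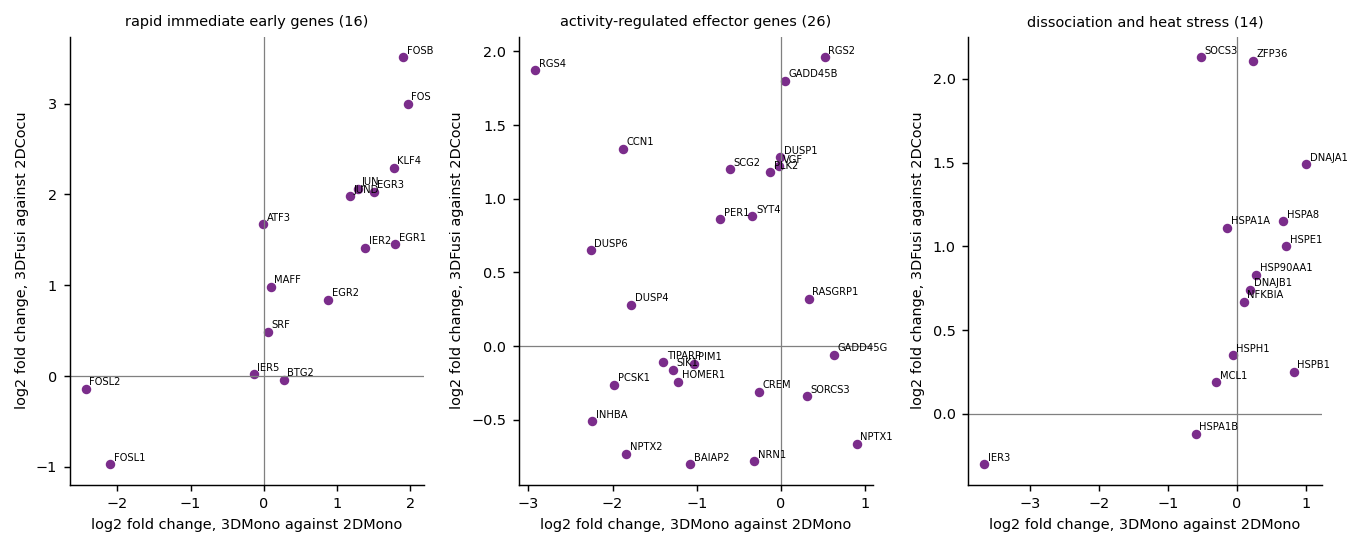
Log2 fold change of listed genes in 3DMono against 2DMono (x axis) and in 3DFusi against 2DCocu (y axis), 1 point a gene, for 16 rapid immediate early genes, 26 activity-regulated effector genes and 14 dissociation and heat genes, with 1 of the 15 tested in both comparisons not plotted or reported here. FOS, FOSB, EGR1 and JUN lie at 1.28 or more on both axes, while RGS4, DUSP6 and CCN1 are positive for 3DFusi and negative for 3DMono.

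The lower NPAS4 of 3DMono was also seen within GABAergic neuron-like cells. In that class 21.8% of 8621 genes were called, and NR4A1, NR4A2 and NPAS4, the 3 genes that passed the filter, were lower in organoids. NR4A2 was 0.876 to 3.39 CPM in 3DMono (median 2.38) and 14.8 to 39.2 in 2DMono (median 20.6), without overlap, a difference of -3.08 (SE 0.36, 0.119-fold, adjusted p = 3.94e-06). In this class NR4A2 did not pass the filter within 3DMono alone, so it entered the test through 2DMono, where it was high. Its direction was therefore set by the filter and adds nothing to that of NR4A1 and NPAS4. NR4A1 was 11.2 to 40.7 CPM (median 21.2) against 74.4 to 158 (median 104), without overlap, a difference of -2.27 (SE 0.32, adjusted p = 0.000132).

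NPAS4 in this class was 9.53 to 76.6 CPM in 3DMono (median 24.9) and 51.5 to 219 in 2DMono (median 115), with overlap, a difference of -1.67 (SE 0.48, adjusted p = 0.031). Leaving out any of 7 of the 12 tags took it past the threshold (adjusted p up to 0.089): AcDop 2, AcMor 1 and Vehic 1 of 2DMono and AcDop 2, AcMor 2, Vehic 1 and Vehic 2 of 3DMono. A count was seen in 22.21% of 680 cells in 2DMono and 15.12% of 1005 cells in 3DMono, at median depths of 7268 and 9480 counts. Of 10 effector genes tested there 7 fell and 0 rose (median -1.11), HOMER1 by -2.21 (SE 0.18), the kinase SIK1 by -2.19 (SE 0.30) and DUSP4 by -2.13 (SE 0.20). Cluster 19 holds 92.5% of the class in 2DMono and cluster 3 holds 95.8% in 3DMono, so these are differences between clusters as well as formats.

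Excitatory neuron-like cells of the monocultures gave other values, and the difference between classes was not tested. There 33.2% of 12141 genes were called, and of the 4 genes tested NR4A3 was higher in 3DMono, 9.29 to 21.2 CPM against 0 to 11.8, a difference of 1.06 (SE 0.35, adjusted p = 0.0286). This was lost without any of 6 tags, AcDop 2, AcMor 2 and Vehic 1 of 2DMono and AcDop 1, AcDop 2 and Vehic 2 of 3DMono, with adjusted p up to 0.105. In this class NR4A3 did not pass the filter within 2DMono alone. It entered the test through 3DMono, where it was high, so its direction was set by the filter. NR4A2 (1.00, SE 0.42, adjusted p = 0.0785), NPAS4 (0.50, SE 0.38, adjusted p = 0.33) and NR4A1 (-0.23, SE 0.27, adjusted p = 0.55) did not pass. NR4A2 passed without the 3DMono tag AcMor 2 (adjusted p = 0.043) or Vehic 2 (0.0403). Cluster 0 holds 72.6% of the class in 2DMono and cluster 2 holds 99.3% in 3DMono.

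The format effect itself differed between the pairs for NPAS4 and NR4A1. In a fit over all tags of the 4 treated arrangements, read from their AcMor and Vehic tags, the 3-D against 2-D effect of the Fusi and Cocu pair minus that of the Mono pair was 3.15 for NPAS4 (SE 0.54, adjusted p = 0.000416) and 1.94 for NR4A1 (SE 0.41, adjusted p = 0.00338). With the tag number as a block they were 3.10 (adjusted p = 0.00088) and 1.74 (adjusted p = 0.000863), and without mesenchymal-like cells 3.24 and 1.5, all called. Nothing ties tag numbers across arrangements, so the meaning of that block is not known. Unnamed cluster 17, with mesenchymal markers, stayed in the fit without mesenchymal-like cells. In the test with all cells and no block 6.68% of 24803 genes were called, and 2 of the 6. NR4A3 (0.86, SE 0.31, adjusted p = 0.0989), NR4A2 (0.82, SE 0.43, adjusted p = 0.286), ARC (0.36, SE 0.64) and BDNF (-0.20, SE 0.35) did not pass. NR4A3 passed without the 3DMono tag Vehic 2 (1.13, adjusted p = 0.0359). Of the 15 dissociation and heat genes 3 were called in the same direction, IER3 (3.15), SOCS3 (2.23) and ZFP36 (1.92), and their part was not tested.

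**Figure D4:**
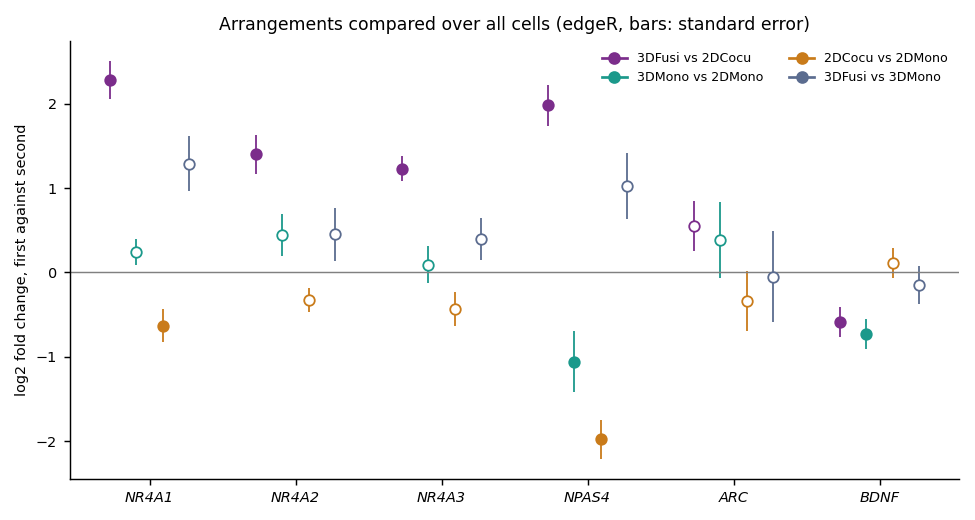
Fitted log2 fold change (y axis) of each gene (x axis) in 4 comparisons of arrangements over all cells, with standard errors as bars, filled points for genes past the threshold and open points for the rest. NR4A1 and NPAS4 stand at 2.28 and 1.98 in 3DFusi against 2DCocu, and NPAS4 falls below 0 in 3DMono against 2DMono and in 2DCocu against 2DMono.

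Within one format, the arrangements were compared over their AcMor and Vehic tags. In 2DCocu against 2DMono 30.3% of 20915 genes were called, and of the 6 genes NPAS4 (-1.98, SE 0.23, 0.253-fold, adjusted p = 5.36e-06) and NR4A1 (-0.63, SE 0.20, adjusted p = 0.0234) were lower in 2DCocu. The NR4A1 call was lost without the 2DMono tag AcMor 1, AcMor 2 or Vehic 1 (adjusted p up to 0.104). GABAergic neuron-like cells, where NPAS4 averaged 120 ± 54.8 CPM in 2DMono, made up 14.04% of 2DMono cells and 0.92% of 2DCocu cells. In excitatory neuron-like cells NPAS4 averaged 6.96 ± 4.16 CPM in 2DCocu and 6.47 ± 3.30 in 2DMono. The part of the makeup in the lower NPAS4 of 2DCocu was not tested.

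Effector genes were lower as well in 2DCocu, 12 of 27 against 1 higher (median -0.49), while of 17 rapid immediate early genes 3 were higher and 1 lower. In 3DFusi against 3DMono 1.56% of 23145 genes were called and 0 of the 6. NR4A1 had a difference of 1.29 (SE 0.33, adjusted p = 0.0723). With the tag number as a block it was 0.22 (SE 0.20, adjusted p = 0.756), and without mesenchymal-like cells 0.81 (adjusted p = 0.0627). Among these tags only number 1 occurs in both arrangements, so the blocked value rests on the number 1 tags. In 3DFusi those were the lowest for NR4A1 in each treatment, and nothing ties numbers across arrangements. Unnamed cluster 17, with mesenchymal markers, stayed in the fit without mesenchymal-like cells. In the main fit NR4A1 passed without the 3DFusi tag Vehic 1 (adjusted p = 0.0115) or AcMor 1 (0.0253). DESeq2 on the same counts called it (adjusted p = 0.0043).

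Treatment was compared with Vehic inside each arrangement, where treatments share the Vehic tags. None of the 6 genes passed the threshold in any of the 8 comparisons over all cells. In the 16 within neuron classes 2 to 5 of them could be tested, and none of these passed. The background differed widely. In 2DCocu, AcCoc called 6.1% of 21032 genes and AcMor 0.975%, in the largest group of tags (4 against 4). There NR4A1 was 10.1 to 13.9 CPM under AcCoc, 8.68 to 17.2 under AcMor and 13.4 to 17.8 under Vehic, with differences of -0.33 (SE 0.22, adjusted p = 0.4) and -0.30 (SE 0.22, adjusted p = 0.561). NPAS4 was 2.30 to 9.999, 2.12 to 5.90 and 2.88 to 3.65 CPM, with differences of 0.58 (SE 0.39) and 0.37 (SE 0.40).

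The makeup of the 2DCocu tags moved with treatment. Excitatory neuron-like cells were 4.91 to 10.78% of the Vehic tags, 25.92 to 36.79% under AcCoc and 26.05 to 29.48% under AcMor. Glycinergic neuron-like cells were 5.44 to 10.86%, 12.27 to 15.12% and 12.95 to 15.54%. Over all cells, other activity genes passed. Of 25 effector genes 4 rose and 2 fell under AcCoc, among them NRN1 (1.33, SE 0.16), SYT4 (1.05, SE 0.15) and NPTX1 (1.05, SE 0.23), and 4 rose and 1 fell under AcMor, among them VGF (1.44, SE 0.33) and NRN1 (1.02, SE 0.16). The AMPA receptor subunit GRIA2 rose under both, by 0.98 (SE 0.15) and 1.10 (SE 0.15). Within excitatory neuron-like cells, 0 of 16 effector genes rose and 1 fell under AcCoc (median -0.31), 0 passed under AcMor (median -0.22), and 0 of 8 ARC partners passed under either. Within glycinergic neuron-like cells, 0 of 15 effector genes passed under AcCoc, and 1 rose under AcMor, as did 1 ARC partner. The part of the makeup in the rises over all cells was not tested. Of 17 rapid immediate early genes 0 passed over all cells under either treatment. Within classes of 2DCocu, AcCoc called 0.117% of genes in excitatory neuron-like and 0.352% in glycinergic neuron-like cells, and AcMor 0.0781% and 1.23%. Of the 6 genes 4 could be tested in the first class and 3 in the second, and 0 passed.

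In 3DFusi 0% of 23679 genes were called under AcCoc and 0% under AcMor, and 393 and 177 had an unadjusted p below 0.05. NR4A1 stood at 21.8, 73.8 and 83.7 CPM in Vehic tags 1, 3 and 4, at 45.2, 47.4, 133 and 116 in AcCoc tags 1 to 4, and at 30.6, 81.1 and 66.2 in AcMor tags 1, 3 and 4. Tags of number 1 were the lowest of each treatment, and the treatments overlapped. In each of the 3 numbers with both treatments, AcCoc was above Vehic for NR4A1, NR4A2 and NR4A3. The fitted AcCoc differences were 0.56 for NR4A1 (SE 0.47), 0.79 for NR4A2 (SE 0.45) and 0.88 for NR4A3 (SE 0.29, unadjusted p = 0.0111), each with an adjusted p of 1. With the tag number as a block they were 0.81 (SE 0.16, unadjusted p = 0.000432), 1.16 (SE 0.27, unadjusted p = 0.00174) and 0.78 (SE 0.28), still with adjusted p of 1. Whether the numbers pair these tags is not known. Mesenchymal-like cells, where NR4A1 had its highest mean in organoids, made up 2.57, 17.69 and 24.43% of Vehic tags 1, 3 and 4 and 4.51, 44.34 and 19.43% of the AcCoc tags of those numbers, and their part in the AcCoc differences was not tested.

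**Figure D5:**
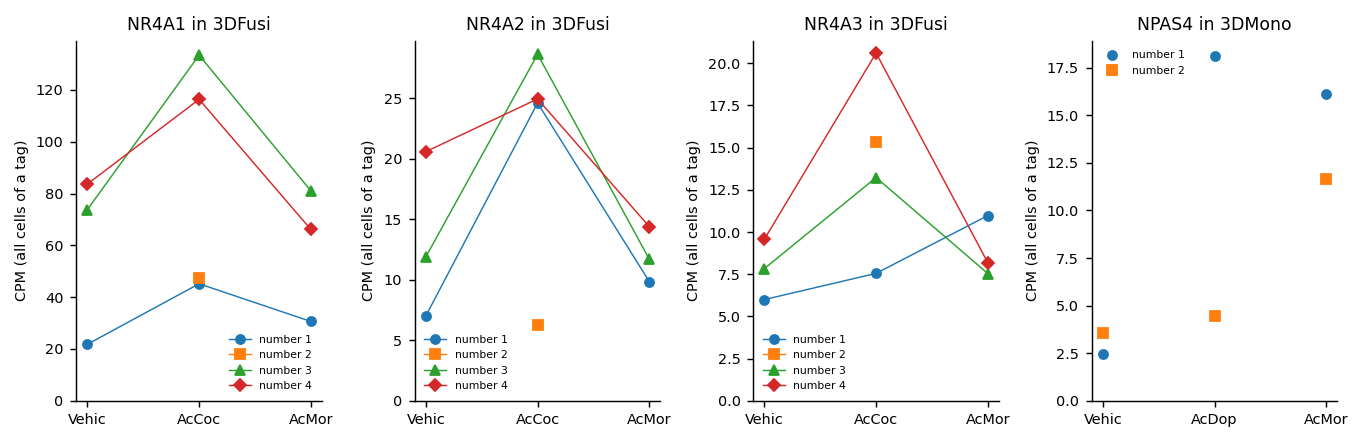
Level (y axis, CPM over all cells of a tag, from 0) by treatment (x axis) of NR4A1, NR4A2 and NR4A3 in 3DFusi, with lines joining tags of the same number, and of NPAS4 in 3DMono. AcCoc tags 1, 3 and 4 lie above the Vehic tag of the same number in all 3 panels of 3DFusi, and both Vehic tags of 3DMono lie at 3.54 CPM of NPAS4 or less.

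Within GABAergic neuron-like cells of 3DFusi, NR4A1 differed by 1.32 under AcCoc (SE 0.26, unadjusted p = 0.000182, adjusted p = 0.78), with 1.66 for NR4A2 (SE 0.69) and 1.98 for NR4A3 (SE 0.54). In that class 0% of 12881 genes were called under AcCoc and 0% under AcMor, and in excitatory neuron-like cells 0% of 10641 under either. The test of the AcCoc effect in 3DFusi against that in 2DCocu called 0.0121% of 24803 genes and none of the 6, and that of the AcMor effect 0%. For NR4A1 these differences were 0.91 (SE 0.48, adjusted p = 0.862) and 0.45 (SE 0.50).

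In 3DMono 0% of 22112 genes were called under AcDop (740 with an unadjusted p below 0.05) and 0% under AcMor (1925). NPAS4 stood at 2.45 and 3.54 CPM in the Vehic tags, 18.1 and 4.44 in the AcDop tags and 16.1 and 11.7 in the AcMor tags. Every treated tag was above both Vehic tags. GABAergic neuron-like cells, the class with the highest mean of NPAS4 over tags, made up 4.61 and 5.66% of the Vehic tags, 17.59 and 4.51% of the AcDop tags and 18.54 and 34.54% of the AcMor tags. Their part in the NPAS4 differences was not tested. The differences were 2.35 for AcMor (SE 0.63, unadjusted p = 0.00671, adjusted p = 0.393) and 1.92 for AcDop (SE 0.63, unadjusted p = 0.0177, adjusted p = 1). The AcDop difference was 0.61 without AcDop 1 and 2.61 without AcDop 2, and the AcMor difference ran from 2.01 to 2.62 with 1 tag left out. DESeq2 called NPAS4 under AcMor (adjusted p = 0.00765), and edgeR without the filter on low counts called it under both (4.12e-08 and 9.6e-05). All these fits use the same 2 tags of each treatment, and why their calls differ was not tested. ARC differed by 1.53 (SE 0.62) and 1.63 (SE 0.64) without passing.

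The classes of 3DMono gave 0% of 10320 genes in GABAergic neuron-like cells under AcDop and under AcMor, and 0% and 0.00678% of 14742 in excitatory neuron-like cells. NPAS4 in GABAergic neuron-like cells differed by 2.47 under AcMor (SE 0.80, adjusted p = 0.839) and 2.36 under AcDop (SE 0.84, adjusted p = 0.952). It stood at 9.53 and 10.2 CPM in that class of the Vehic tags (6 and 3 counts), 68.9 and 24.5 under AcDop and 76.6 and 25.3 under AcMor. In 2DMono 0% of 19416 genes were called under AcDop (467 with an unadjusted p below 0.05) and 0% under AcMor (1247), 0% of 8935 in GABAergic neuron-like cells under either, and 0.0248% and 0% of 12079 in excitatory neuron-like cells. NPAS4 was 12.2 and 8.16 CPM under Vehic, 19.7 and 18.05 under AcDop and 21.1 and 9.87 under AcMor, differences of 0.85 (SE 0.38) and 0.53 (SE 0.37). There GABAergic neuron-like cells made up 9.09 and 7.89% under Vehic, 18.18 and 10.15% under AcDop and 20.83 and 21.03% under AcMor, and their part was not tested. The difference between the AcMor effects on NPAS4 in 3DMono and 2DMono was 1.87 (SE 0.85, adjusted p = 1, 0% of genes called).

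In single cells, a count of one gene went with a count of another. Of the cells with an NPAS4 count 45.4% also had NR4A1, against 20.51% of all cells, and 17.2% had NR4A3 against 6.91%. The cells with both NPAS4 and NR4A1 held a median of 24068 counts, against 12776 in all cells, and the part of depth was not tested. In GABAergic neuron-like cells 354 of 707 cells with NPAS4 (50.1%) had NR4A1, against 16.67% of the class, at a median depth of 14244 counts against 10023. NR4A1 and NR4A2, the pair highest in mesenchymal-like cells, shared 1881 cells, 44.1% of those with NR4A2. At least 1 of the 6 genes was counted in all but 27075 cells, and all 6 in 1 cell.

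Likeness over the 46 tags was measured as Pearson's r of log2(CPM + 1), among genes with a mean of at least 5 CPM, as a description of points that share arrangements, cell makeup and depth. NR4A1 was most like FOSB (r = 0.908), ERCC1 (0.90) and ZFP36 (0.897). ERCC1 overlaps FOSB on the opposite strand over 7185 bases, so reads of that pair cannot be told apart if strand was not used. NR4A3 was most like EGR3 (0.836) and FOSB (0.815), and with NR4A1 itself it reached 0.809. NR4A2 was most like PDGFRA (0.78), a receptor gene of mesenchymal and glial precursor cells, KCTD12 (0.771) and PRDM6 (0.767).

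NPAS4 was most like ST8SIA5 (0.735), SLC4A4 (0.715) and MGAT5 (0.702), and reached 0.594 with NR4A1. With arrangement means removed, over the 34 treated tags, the value for NPAS4 with NR4A1 was 0.117, and the gene most like NPAS4 was DLX2 (0.755), a transcription factor of GABAergic neurons. NR4A1 kept ERCC1 (0.839) and ZFP36 (0.835) and gained CSRNP1 (0.835). NR4A2 was then most like DDN-AS1 (0.716) and NR4A3 most like LXN (0.687). ARC was most like MAPK8IP1 (0.796) over all tags, and BDNF most like UBE2E2 (0.794).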

How the data were processed

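The matrix holds expected counts per gene and cell, which the authors deposited unscaled for 43693 cells in 8 sublibraries of 1 combinatorially barcoded pool of polyadenylated RNA. Salmon 1.7.0 with alevin, Seurat 4.1.1 and build hg38 are named per the submitters' processing notes, without their roles, and the use of strand is not given in the sources used here. Rows and columns were matched by name, and groups were read from the tags in the cell names.

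Cells were clustered without the 6 genes and the listed genes (2000 variable genes, 30 components, 20 neighbours, Leiden resolution 0.8, leidenalg 0.10.2, Python 3.11.15), giving 38 clusters. A class name needed 3 markers of a list. Simulated doublets put 7376 cells (16.9%) past the threshold, and they were kept except in 1 alternative. Counts were summed per tag, or per tag and class with at least 20 cells, rounded to whole numbers and tested with edgeR 4.0.16 (quasi-likelihood, filterByExpr, TMM, R 4.3.3), Benjamini-Hochberg adjusted over all genes tested at 0.05. The test was checked on simulated data. CPM are sums divided by all counts of the tag or class. Confidence intervals of shares, exact binomial at 95%, stand in the tables behind the text and cover counting error only. Genes outside the 6 were named as the 4 of each list that passed with the largest change, except BAIAP2, NRN1, NPTX2, NPTX1, CREM and HOMER1 in 3DFusi against 2DCocu and EGR1 in the plot of listed genes, which were chosen after their values were seen. Likeness names up to 3 genes with the highest r. The 6 genes, the lists and the tests were chosen with earlier results of these data known.

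In 3DFusi same-numbered tags deviated together (correlations 0.201 to 0.688 in 9 pairs, mean 0.464). The 24 pairs of different numbers ran from -0.678 to 0.541 (mean -0.167). These ranges overlap, and tags of number 3 went with tags of number 4 as well (0.257 to 0.541). Whether numbers pair the 3DFusi tags is therefore not known. In 2DCocu the range for same-numbered tags was -0.442 to 0.142, and 2DMono and 3DMono have 2 numbers only. Alternatives were DESeq2 1.42.0, its size factors in edgeR, no filter, 1 fit over all treated tags, other resolution, doublets removed, Vehic tags alone, the replicate block and each tag left out. Some listed genes are counted with their lists and not reported here by name.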

Additional observations from a re-analysis of the deposited data

Results flagged for a closer look

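The NPAS4 level of the 2DCocu tag AcCoc number 4 was 10 CPM, far from the other 3 AcCoc tags at 2.30 to 3.60, a gap of 0.831 of the group's range. The NR4A2 level of the 2DCocu tag AcCoc number 1 was 9.96 CPM against 3.43 to 4.22 in the others, a gap of 0.878 of the range. Each gene's outlying tag is a different one. With 24 groups of 4 tags looked at (6 genes in each of 4 groups), chance gives about 1 in 20.

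The effect of 3-D against 2-D culture differed between the Fusi and Cocu pair and the Mono pair by 3.15 on the log2 scale for NPAS4 (SE 0.54, edgeR adjusted p = 0.000416) and by 1.94 for NR4A1 (SE 0.41, edgeR adjusted p = 0.00338). Leaving out 1 tag at a time gave 2.81 to 3.36 and 1.76 to 2.12, all called. The makeup of the cultures differed as well, with GABAergic neuron-like cells at 14.04% of 2DMono and 0.92% of 2DCocu cells, and mesenchymal-like cells at 15.47% of 3DFusi and 3.09% of 3DMono cells. Without mesenchymal-like cells the differences were 3.24 and 1.5, both called, and the part of GABAergic neuron-like cells was not tested. Unnamed cluster 17, with mesenchymal markers, stayed in that fit.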

How the results depend on the processing

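In 28 of 35 comparisons 0 of the 6 genes were called, and a count that stays at 0 says little about stability. In the 7 others, 31 counts under an alternative were within 1.5 times their value and 5 were not, and 4 counts rose from 0. The cause was not tested unless named. Of the log2 differences of single genes under these settings, 153 kept their direction and side of the threshold, 6 lost the call and 7 gained it. On leaving out 1 tag at a time 443 kept both, 23 lost the call, 8 gained it and 1 turned its direction. Shares of cells with a count moved in all 30 cases when cells were thinned to 5000 counts and in 10 of 30 when any entry above 0 was taken as a count. In 3DFusi against 2DCocu 5 genes were called, and 3 with mesenchymal-like cells alone, where only 3 could be tested, NR4A3 among them near the floor in 2DCocu. In excitatory neuron-like cells of that pair 3 were called, and 5 at resolution 0.4. In 2DCocu against 2DMono 2 were called, and 1 with Vehic tags alone. In 3DMono against 2DMono 2 were called, and 1 with Vehic tags alone or with BDNF and BDNF-AS added, a sum that BDNF-AS dominates, so that a lower BDNF would hardly show in it. In 3DFusi against 3DMono DESeq2 called 1 (NR4A1) where edgeR called 0. In 3DMono NPAS4 alone was called, under AcMor by DESeq2 (1) and without a filter (1) and under AcDop without a filter (1), where edgeR called 0.

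Leaving out 1 tag at a time gave 5 to 6 genes in 3DFusi against 2DCocu, 3 to 4 in its excitatory neuron-like cells, 1 to 2 in 2DCocu against 2DMono, 0 to 1 in 3DFusi against 3DMono, 2 to 3 in the difference between the format effects of the pairs, and 1 to 2 in 3DMono against 2DMono, with 1 to 4 in its GABAergic and 0 to 2 in its excitatory neuron-like cells. The 1 came without the 2DMono tag Vehic 1, where 2 of the genes could be tested. It gave 0 to 1 in GABAergic neuron-like cells under AcMor in 2DMono (ARC -2.18, adjusted p = 0.0381, without AcDop 1) and in 3DMono (NPAS4 3.09, adjusted p = 0.0305, without AcMor 2), and 0 in the other treatment comparisons. NR4A1 in excitatory neuron-like cells of 3DMono against 2DMono ran from -0.37 to 0.05 around its value of -0.23 and turned positive only without the 2DMono tag Vehic 1. NR4A2 in 2DCocu against 2DMono passed without mesenchymal-like cells (-0.41, adjusted p = 0.0407).

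With the tag number as a replicate block the called genes were as many as without it, 5 in 3DFusi against 2DCocu (NR4A1 2.12, SE 0.19), 2 in 2DCocu against 2DMono, 2 in 3DMono against 2DMono, 2 in the difference between the format effects and 0 elsewhere. Nothing ties numbers across arrangements, so between arrangements the meaning of the block is not known. In 3DFusi against 3DMono the block took NR4A1 from 1.29 to 0.22 (adjusted p = 0.756). There only number 1 occurs in both arrangements, so that value rests on the number 1 tags, the lowest of 3DFusi. Summing 3DFusi tags of 1 number called the same 5 genes. Leaving out mesenchymal-like cells, testing them alone, the alternatives of the differences between effects, adding BDNF-AS and summing by number were chosen after seeing the data. Doublet removal was not run for excitatory neuron-like cells of 3DFusi against 2DCocu, where it left a tag under 20 cells, and class comparisons of formats have no block fit. ARC, with 1701 counts in 43693 cells, is the gene most limited by depth.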
